A study of Mus musculus with 15 samples.

Results

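Klhl24 encodes an adaptor of the CUL3 ubiquitin ligase, and it had one of the steepest falls in mammary tissue of mice given the flame retardant BDE-47. Klhl24 was chosen on that measured fall, so its values are a description with no test. The other 9 genes were taken by name and protein family: the ligase scaffold Cul3, its RING subunit Rbx1, and the adaptors Klhl7, Klhl9, Klhl12, Klhl13, Klhl20, Klhl21 and Klhl22. All 10 were found among the 52526 genes of the tables, and all 10 passed the filter that left 9511 genes for testing. The question was whether other parts of the same ligase moved with Klhl24.

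Cullin ligases attach ubiquitin to chosen proteins, which marks many of them for destruction by the proteasome and changes the location or activity of others. In the CUL3 branch the scaffold CUL3 carries RBX1 at one end, which recruits the ubiquitin-conjugating enzyme, and at the other end a BTB protein that brings the substrate. In the Kelch-BTB proteins, named Klhl or Kbtbd, the BTB domain binds CUL3 and the Kelch repeats bind the substrate, so each adaptor directs the same core to its own targets. Attachment of NEDD8 to the cullin switches the ligase on, and the COP9 signalosome removes it.

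The mice were female nude mice (Crl:NU-Foxn1nu, nu/nu), which lack mature T cells. In 8 of them, the vehicle group, subcutaneous osmotic pumps released PEG300 with 1% DMSO. In the other 7 the pumps also released BDE-47, a polybrominated diphenyl ether, at a target of 0.03 mg/kg/d. Dosing lasted 16 weeks, started after 8 weeks of age, and RNA was taken from tissue of the left 4th mammary fat pad. The study's methods mention xenografts in the region, which the labels do not assign to single mice, so their share in any difference was not tested.

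Values were log2 counts per 1 M mapped reads (log2(CPM)) from a library type that yields one read near the 3′ end of each transcript, so levels of different genes can be compared without a correction for length. A gene under 1 CPM was listed at 0. Depth was 10.06 to 19.58 M mapped reads, so 1 CPM, called the floor here, stood for 10.06 to 19.58 reads. The mice had 6932 to 12689 genes above the floor, and the vehicle and BDE-47 ranges overlapped. Adipocyte markers were high in most mice, as in a mammary fat pad, with a summed level of 327 to 20814 CPM with vehicle and 2441 to 10693 CPM with BDE-47 over 7 genes. Luminal epithelial markers summed to 33.7 to 1941 CPM with vehicle and 148 to 2611 CPM with BDE-47 over 7 genes, and basal markers to 46.8 to 520 CPM and 46.8 to 326 CPM over 6 genes. Fibroblast markers summed to 403 to 3274 CPM with vehicle and 689 to 1976 CPM with BDE-47 over 6 genes, and macrophage markers to 149 to 769 CPM and 108 to 450 CPM over 7 genes. Of 8 B cell markers, all were above the floor in vehicle replicates 6 and 8, at 499 and 686 CPM summed, and at most 1 was above it in any other mouse. Skeletal muscle markers reached 81953 CPM summed over 7 genes in BDE-47 replicate 6, against at most 167 CPM in the other mice. In bulk tissue, fewer cells of a type and less RNA per cell cannot be told apart.

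Klhl24 (chr16:20097553-20129226 in GRCm38) is best known in skin, where its protein directs CUL3 to keratin 14 and where mutations in it cause skin fragility. With vehicle it stood at 4.32, 4.99, 6.12, 5.94, 5.09, 5.19, 5.86 and 5.03 log2(CPM) in replicates 1 to 8, a mean of 5.32 ± 0.61 (SD, n = 8). With BDE-47 it stood at 4.35, 0, 4.36, 0, 0, 3.54 and 0 log2(CPM) in replicates 1 to 7. Every vehicle mouse was thus above the floor, but 4 of 7 BDE-47 mice were under it, where it did not reach 1 CPM. The 3 remaining BDE-47 mice averaged 4.08 log2(CPM), still in the lowest part of the vehicle range or beneath it. The groups overlapped in 1 place, where vehicle replicate 1 lay below the highest BDE-47 value.

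**Figure D1:**
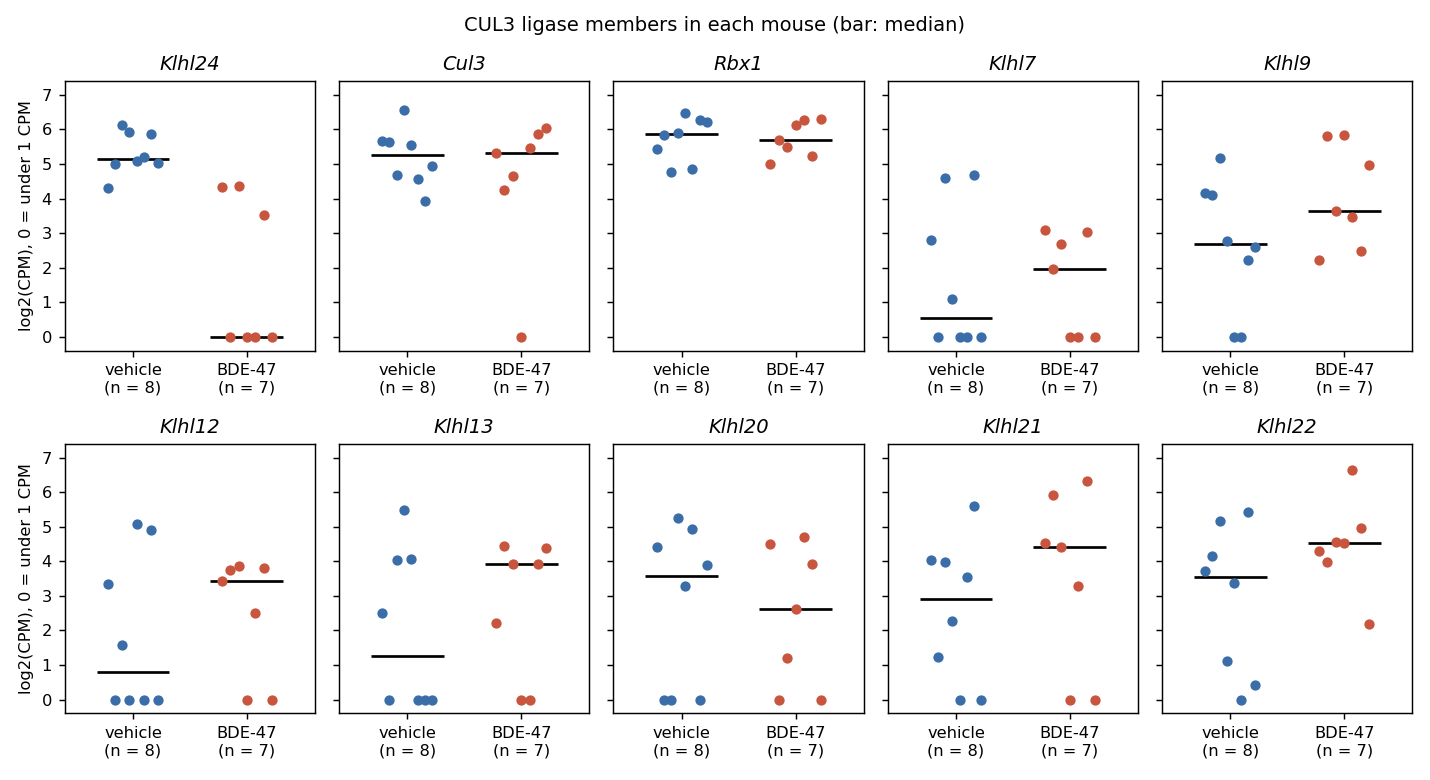
Level of each of the 10 genes in each mouse, as log2(CPM) on the vertical axis with genes under 1 CPM at 0, for 8 vehicle mice in blue and 7 BDE-47 mice in red, with a bar at the group median. For Klhl24, 4 of 7 BDE-47 mice lie at 0 and all 8 vehicle mice lie between 4.32 and 6.12, whereas for the other 9 genes the groups overlap throughout.

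The mean of Klhl24 differed by -3.57 log2 units (SE 0.92, limma) between BDE-47 and vehicle, an 11.9-fold lower geometric mean with mice under the floor counted at 1 CPM. As a ratio of mean CPM the difference was -2.52, and over the mice above the floor alone -1.24. On the deposited scale this was rank 2 among all falls of the tested genes. The next larger was Sipa1, a regulator of Rap GTPases, at -3.80, and the next smaller were Utp14a, a ribosome biogenesis factor, at -3.53 and Dock8, a guanine nucleotide exchange factor of immune cells, at -3.48. These genes differed from Klhl24 in the vehicle mice, in that Sipa1 and Utp14a exceeded the floor in 7 of 8 and Dock8 in 6 of 8.

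Klhl24 was not a low-level gene in the vehicle mice. Its vehicle median of 5.14 log2(CPM) was above that of 75.3% of the genes tested, and 307 to 1148 reads stood behind it in each vehicle mouse. Of 1080 genes above the floor in all vehicle mice and with a vehicle median within 0.5 log2 units of its own, Klhl24 was the 1 gene (0.0926%) listed at 0 in 4 or more BDE-47 mice. Among the same genes, 765 (70.8%) were above the floor in all 15 mice. Over all genes tested, 12 (0.126%) were above the floor in all vehicle mice and at 0 in at least 4 BDE-47 mice, and 68 (0.715%) showed the opposite pattern. The rule that picked Klhl24 used the same comparison, so these shares place it and support nothing.

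The 4 BDE-47 mice without Klhl24 above the floor also lacked more of the other genes of that level. Of 1159 genes with a vehicle mean within 0.5 log2 units of that of Klhl24, 3.54% were at 0 in BDE-47 replicate 2, 8.02% in replicate 4, 2.16% in replicate 5 and 5.87% in replicate 7. The other 3 BDE-47 mice had 0%, 0.345% and 1.98% of them at 0. In vehicle mice the share was 0 to 1.98%, a range that is low by construction because the level was set in those mice. Mapped reads in these 4 mice, at 11.69 to 19.38 M, were within the range of the others. Genes above the floor numbered 6932 to 8504 in these 4 mice and 9326 to 12689 in the other 3 BDE-47 mice. In vehicle mice, where Klhl24 was always above the floor, they numbered 7475 to 11490. The part of such dropout in the values of Klhl24 was not tested.

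**Figure D2:**
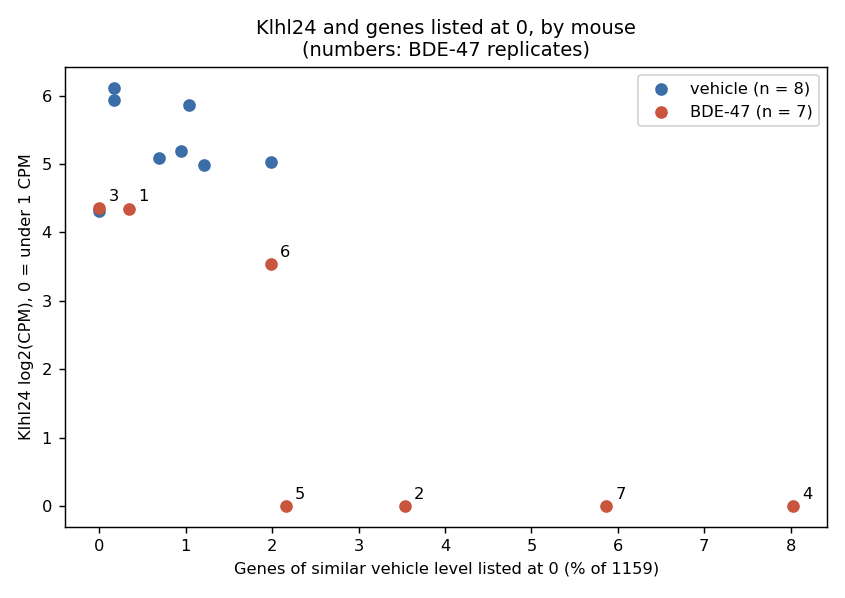
Klhl24 in each mouse, as log2(CPM) on the vertical axis, against the percentage of 1159 genes of similar vehicle mean that were listed at 0 in the same mouse, with vehicle mice in blue and BDE-47 mice in red and numbered by replicate. The 4 BDE-47 mice with Klhl24 at 0 are those with 2.16% to 8.02% of such genes at 0, and the other 11 mice have at most 1.98%.

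B cell and muscle markers did not stand out in the 4 mice with Klhl24 at 0. The gene was at 5.19 and 5.03 log2(CPM) in vehicle replicates 6 and 8, which held the B cell markers, and at 3.54 in BDE-47 replicate 6, which held the muscle markers. Without these 3 mice, a choice made after seeing the data, its difference was -3.94 log2 units.

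The core of the ligase did not pass the test, which 0 of all 9511 genes tested passed. Cul3 (chr1:80264923-80340690), the scaffold, ran from 3.92 through a median of 5.25 to 6.56 log2(CPM) with vehicle and from 0 through 5.33 to 6.03 with BDE-47. It exceeded the floor in 8 of 8 and 6 of 7 mice, and the group ranges overlapped almost wholly. The difference was -0.68 log2 units (SE 0.73, 95% interval -2.15 to 0.79, limma adjusted p = 0.982, exact permutation p = 0.529). It rested on BDE-47 replicate 4, where Cul3 was at 0 while the next lowest mouse stood at 4.25, and without that mouse it was 0.07. BDE-47 replicate 4 also had the fewest genes above the floor of all 15 mice.

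Rbx1 (chr15:81466316-81476369), the RING subunit that most cullins share, was the steadiest of the 10. It exceeded the floor in all 15 mice, at 4.76 to 6.48 log2(CPM) with vehicle (5.72 ± 0.64, SD, n = 8) and 5.01 to 6.30 with BDE-47 (5.73 ± 0.51, SD, n = 7). The difference was 0.01 log2 units (SE 0.50, 95% interval -1.0 to 1.02, limma adjusted p = 1.0, exact permutation p = 0.971). The interval does not reach beyond about a 2-fold change in either direction.

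None of the 7 other adaptors passed the test, which no gene of all those tested passed. The 4 that act in cell division are given first. KLHL9, KLHL13 and KLHL21 direct CUL3 to Aurora B kinase in dividing cells, and KLHL22 directs it to the mitotic kinase PLK1 and to the nutrient-signalling protein DEPDC5. Klhl9 (chr4:88718292-88722508) ran from 0 through 2.68 to 5.17 log2(CPM) with vehicle and from 2.22 through 3.63 to 5.83 with BDE-47. It exceeded the floor in 6 of 8 vehicle and 7 of 7 BDE-47 mice, and its mean was 1.43 log2 units (SE 1.00) higher with BDE-47 (95% interval -0.60 to 3.46, limma adjusted p = 0.982, exact permutation p = 0.134). Klhl22 (chr16:17759621-17793382) ran from 0 through 3.54 to 5.42 with vehicle and from 2.18 through 4.52 to 6.63 with BDE-47. It exceeded the floor in 7 of 8 and 7 of 7 mice, with a difference of 1.53 log2 units (SE 0.96, 95% interval -0.40 to 3.47, limma adjusted p = 0.982, exact permutation p = 0.121). Both genes thus had a mean difference opposite in sign to that of Klhl24, and neither passed the test.

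Klhl13 and Klhl21 were under the floor in several mice of both groups. Klhl13 (chrX:23219271-23365161) had a vehicle median of 1.26 log2(CPM) with a highest value of 5.49, and a BDE-47 median of 3.92 with a highest value of 4.44. It exceeded the floor in 4 of 8 and 5 of 7 mice, and the difference was 0.69 log2 units (SE 1.12, 95% interval -1.58 to 2.95, limma adjusted p = 0.994, exact permutation p = 0.531). Klhl21 (chr4:152008891-152017677) had a vehicle median of 2.91 with a highest value of 5.60, and a BDE-47 median of 4.41 with a highest value of 6.31. It exceeded the floor in 6 of 8 and 5 of 7 mice, and the difference was 0.91 log2 units (SE 1.14, 95% interval -1.39 to 3.20, limma adjusted p = 0.993, exact permutation p = 0.450), or 0.44 without BDE-47 replicate 6. For each of them the spread among mice of one group was larger than the gap between the means.

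The remaining 3 adaptors serve signalling, secretion and RNA metabolism. KLHL12 acts on Dishevelled in the Wnt pathway and on the coat protein SEC31 in the export of collagen, KLHL20 acts on the kinase DAPK1, the nuclear body protein PML and the autophagy kinase ULK1, and KLHL7, mutated in a form of retinitis pigmentosa, acts on the uridylyltransferase TUT1. Klhl12 (chr1:134455495-134490880) exceeded the floor in 4 of 8 vehicle mice, up to 5.07 log2(CPM), and in 5 of 7 BDE-47 mice, up to 3.87. Its difference was 0.62 log2 units (SE 1.08, 95% interval -1.56 to 2.80, limma adjusted p = 0.994, exact permutation p = 0.564), although the highest values were those of vehicle mice. Klhl20 (chr1:161088375-161131508) exceeded the floor in 5 of 8 vehicle mice, with a median of 3.58 and a highest value of 5.26, and in 5 of 7 BDE-47 mice, with a median of 2.63 and a highest value of 4.69. Its difference was -0.30 log2 units (SE 1.14, 95% interval -2.60 to 2.00, limma adjusted p = 0.994, exact permutation p = 0.791). Klhl7 (chr5:24100565-24163369) exceeded the floor in 4 of 8 vehicle mice, up to 4.68, and in 4 of 7 BDE-47 mice, up to 3.10. Its difference was -0.11 log2 units (SE 0.94, 95% interval -2.01 to 1.79, limma adjusted p = 0.999, exact permutation p = 0.962) and became 0.0034 when libraries were scaled by size factors. None of these 3 differed beyond the spread between mice.

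**Figure D3:**
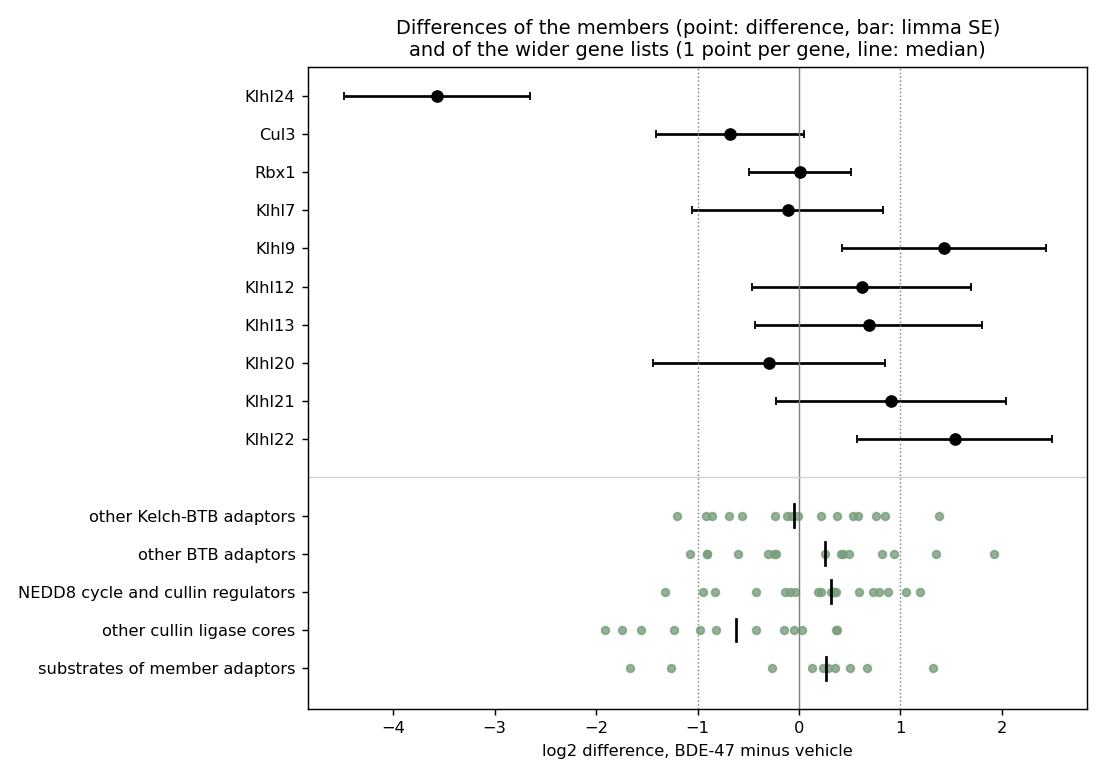
Difference of group means in log2 units, BDE-47 minus vehicle, on the horizontal axis, for the 10 genes (points with limma standard errors as bars) and for the tested genes of 5 wider lists (1 point per gene, vertical line at the median), with dotted lines at a 2-fold change. Klhl24, chosen for its fall, lies at -3.57, so its place past every other gene shown was set by that choice. The medians of the lists lie between -0.62 and 0.31.

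The other 9 genes had no shared direction. Of all 10, means were higher with BDE-47 for 6 and lower for 4, beside 4671 and 4840 of all 9511 genes tested. The 4 were Klhl24, chosen for its fall, and Cul3, Klhl7 and Klhl20. The median difference of the 10, Klhl24 included, was 0.32 log2 units, against -0.02 over all genes tested. Past 2-fold, 2 were higher, Klhl9 and Klhl22, and 1 was lower, Klhl24, the gene chosen for that. Without both vehicle mice with B cell markers, Klhl9 differed by 0.98 and Klhl22 by 0.63 log2 units, and neither was past 2-fold. Without BDE-47 replicate 6, the mouse with muscle markers, too, Klhl9 differed by 1.25, past 2-fold, and Klhl22 by 0.55. Over all genes tested, 1238 (13%) were more than 2-fold higher and 1259 (13.2%) more than 2-fold lower. The 95% intervals of Cul3, Klhl7, Klhl12, Klhl13, Klhl20 and Klhl21 reached beyond a 2-fold fall, so a fall of that size is compatible with their values. With the floor at 0, no gene could fall by more than its vehicle mean. For the other adaptors that mean was 1.65 (Klhl7) to 2.92 log2(CPM) (Klhl22), less than the fall of Klhl24.

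By limma, 0 of 9511 genes (0%) had an adjusted p under 0.05 and the lowest adjusted p was 0.982. At an unadjusted p under 0.05, 259 genes (2.72%) were lower and 184 (1.93%) higher. None of the other 9 genes was among them.

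In order of vehicle median, the genes ran from Rbx1 at 5.86 and Cul3 at 5.25 through Klhl24 at 5.14 to Klhl20 at 3.58, Klhl22 at 3.54, Klhl21 at 2.91, Klhl9 at 2.68, Klhl13 at 1.26, Klhl12 at 0.78 and Klhl7 at 0.55 log2(CPM). Neighbours in this order did not separate, since the ranges over the 8 mice overlapped at every step. Of the 8 adaptors among the 10 genes, only Klhl24 was above the floor in every vehicle mouse, and its level there was close to that of the scaffold. A fall as large as the one it was chosen for requires a high vehicle level, so this place was set by the choice. In the wider Kelch-BTB list, Klhl5, Keap1 and Ivns1abp were also above the floor in 8 of 8 vehicle mice, at medians of 6.02, 5.50 and 6.37. With BDE-47 the median of Klhl24, 0, was the lowest of the 10, which the choice favoured too.

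The number of the 10 genes above the floor varied with the mouse. All 10 were above it in vehicle replicate 1 and in BDE-47 replicates 1, 3 and 6, and the fewest, 4, in BDE-47 replicate 4. These 4 mice with all 10 were also the 4 mice with the most genes above the floor in all, at 9326 to 12689. Vehicle mice had 5 to 10 of them above the floor and BDE-47 mice 4 to 10.

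Across the 15 mice the level of Klhl24 had no shared direction of correlation with the levels of the other 9 genes. Its Pearson r ran from -0.557 with Klhl9 to 0.385 with Klhl7, with a median of 0.0909, and was above 0 for 6 of 9. Over all 45 pairs of the 10 genes r ran from -0.564, between Rbx1 and Klhl21, to 0.761, between Klhl7 and Klhl21. The mice share the group difference and the floor, and the values are a description.

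The tested genes whose levels followed Klhl24 most closely over the 15 mice were not CUL3 adaptors. They were Ralb, a Ras-like GTPase (r = 0.937), Rnf146, a ubiquitin ligase that recognises poly-ADP-ribosylated proteins (r = 0.934), Tmed5, a cargo receptor of the early secretory pathway (r = 0.911), Lipa, the lysosomal acid lipase (r = 0.858), and Vsir, an immune checkpoint receptor (r = 0.856). All 5 exceeded the floor in 8 of 8 vehicle mice. With BDE-47, Ralb and Lipa were above it in 5 of 7 mice, Rnf146 and Tmed5 in 4 of 7, and Vsir in 7 of 7. Their differences were -3.16 for Ralb, -2.60 for Rnf146, -3.05 for Tmed5, -2.47 for Lipa and -1.14 log2 units for Vsir. A gene chosen for likeness to Klhl24 shares its difference between groups, so these values were fixed by the choice.

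The wider family of Kelch-BTB adaptors did not move as a group. Of 42 listed genes 41 were found, 35 were above the floor in some mouse, and 16 passed the filter. Of these 7 had a higher and 9 a lower mean with BDE-47, beside 4671 and 4840 of all 9511 genes tested. None passed the adjusted or the unadjusted threshold, and the median difference was -0.05 log2 units. Over all genes tested, 0% passed the adjusted threshold, and 2.72% passed the unadjusted one as lower and 1.93% as higher. Past 2-fold were Kbtbd11, higher, and Kbtbd2, lower, 1 of 16 in each direction, beside 13% higher and 13.2% lower over all genes tested. The smallest p among those with a higher mean belonged to Kbtbd11, above the floor in 4 of 8 vehicle and 7 of 7 BDE-47 mice (1.38 log2 units, SE 1.04, exact permutation p = 0.125), and over the mice above the floor alone its difference was -0.25. Among those with a lower mean it belonged to Klhl5, a broadly expressed adaptor at 5.05 to 7.73 log2(CPM) with vehicle and 2.88 to 7.26 with BDE-47 (-0.69 log2 units, SE 0.58, exact permutation p = 0.286), and without BDE-47 replicate 4 the difference was -0.28. Keap1, the adaptor that keeps the antioxidant regulator NRF2 low, had medians of 5.50 with vehicle and 6.42 with BDE-47 (difference 0.53 log2 units), and was named after its values were seen.

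**Figure D4:**
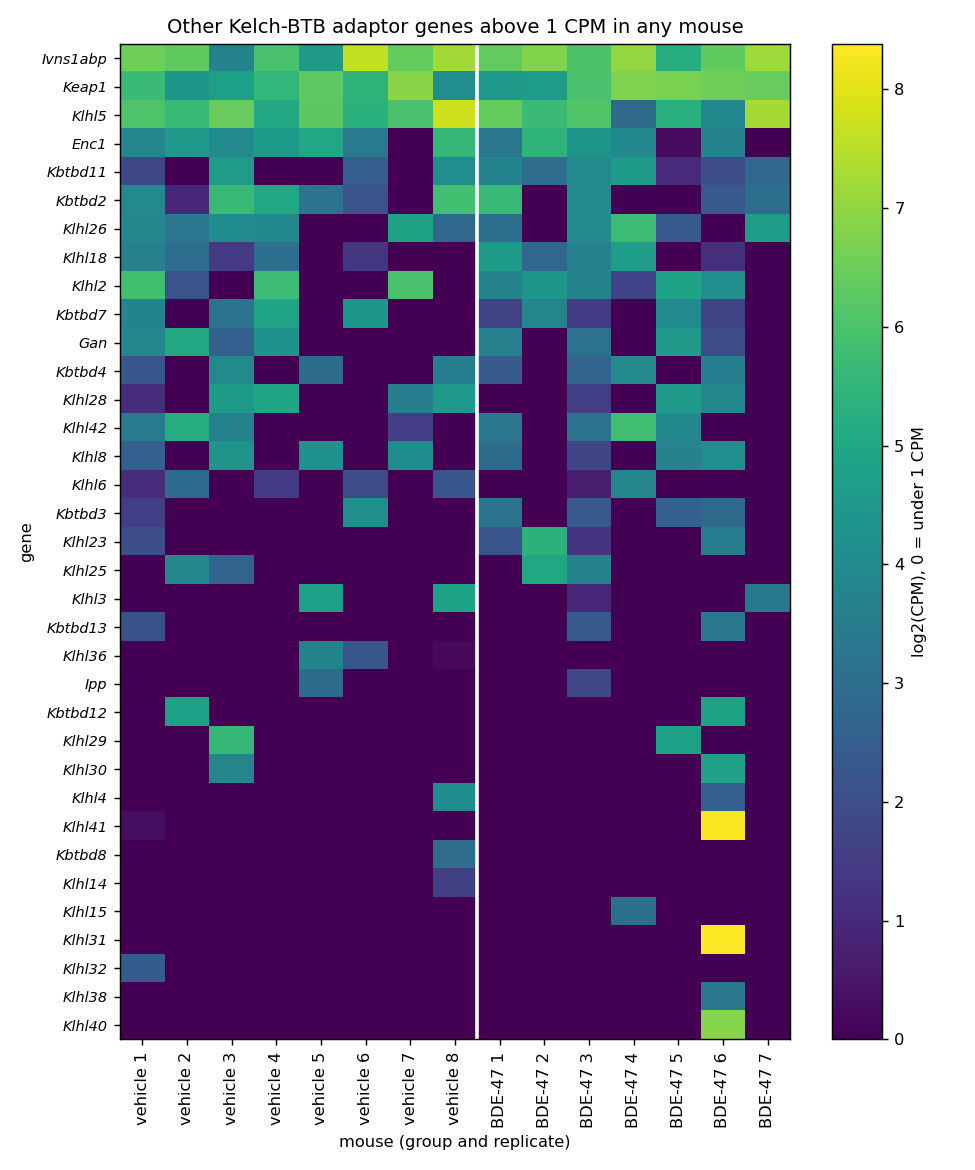
Level of the 35 other Kelch-BTB adaptor genes above 1 CPM in any mouse, as log2(CPM) in colour, with genes in rows and mice in columns, vehicle left and BDE-47 right of the white line. The 6 muscle genes Klhl30, Klhl31, Klhl38, Klhl40, Klhl41 and Kbtbd13 are highest in BDE-47 replicate 6, up to 8.38, and few of the others are above the floor in every mouse.

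Some of the family belong to skeletal muscle, where KLHL40 and KLHL41 stabilise the thin filament. All of 6 such genes, picked from the list after values were seen, had their highest level in BDE-47 replicate 6: Klhl31 stood at 8.38, Klhl41 at 8.30, Klhl40 at 6.86, Klhl30 at 4.83, Klhl38 at 3.37 and Kbtbd13 at 3.31 log2(CPM). Elsewhere Klhl30 in vehicle replicate 3 (3.82), Klhl41 in vehicle replicate 1 (0.30) and Kbtbd13 in vehicle replicate 1 (2.08) and BDE-47 replicate 3 (2.37) were above the floor. This is the mouse whose skeletal muscle markers stood apart.

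BTB adaptors without Kelch repeats were listed apart. Of 20 listed, 15 passed the filter, with 8 higher and 7 lower, beside 4671 and 4840 of all 9511 genes tested. The median difference was 0.26 log2 units. None was past either threshold, beside 0% adjusted, and 2.72% lower and 1.93% higher unadjusted, over all genes tested. Past 2-fold, 2 were higher, Kctd5 and Kctd21, and 1 was lower, Btbd2, of 15 genes, beside 13% and 13.2% over all genes tested. Kctd5, an adaptor for G protein subunits, exceeded the floor in 5 of 8 vehicle and 7 of 7 BDE-47 mice (1.92 log2 units, SE 1.09, exact permutation p = 0.0793), and as a ratio of mean CPM the difference was 0.76. Btbd9, linked to restless legs syndrome, had the smallest p among those with a lower mean (-0.91 log2 units, SE 0.89, exact permutation p = 0.339), and without BDE-47 replicate 4, where it was at 0, the difference was -0.33.

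The NEDD8 cycle that switches cullins on and off also had no gene past a threshold. Over all genes tested, 0% passed the adjusted threshold, and 2.72% passed the unadjusted one as lower and 1.93% as higher. Of 22 listed genes 19 passed the filter, with 12 higher and 7 lower, beside 4671 and 4840 of all 9511 genes tested. The median difference was 0.31 log2 units. Cops6, a subunit of the COP9 signalosome, ran from 0.74 through 4.92 to 6.34 log2(CPM) with vehicle and from 5.25 through 5.92 to 6.33 with BDE-47 (1.19 log2 units, SE 0.66, exact permutation p = 0.0547). Without vehicle replicate 5, the lowest mouse, the difference was 0.64 and not past 2-fold. Dcun1d5, which helps to load NEDD8 on cullins, exceeded the floor in 7 of 8 vehicle and 5 of 7 BDE-47 mice (-1.32 log2 units, SE 0.99, exact permutation p = 0.218), and without BDE-47 replicate 2 the difference was -0.83. Past 2-fold in this list, Cops6 and Arih1 were higher and Dcun1d5 was lower, 2 and 1 of 19 genes, beside 13% and 13.2% over all genes tested.

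The cores of other cullin ligases were listed because they share RBX1, NEDD8 or their architecture with CUL3. Of 12 genes found and tested, 9 had a lower and 3 a higher mean with BDE-47, beside 4840 and 4671 of all 9511 genes tested. The median difference was -0.62 log2 units against -0.02 over all genes tested. None had an adjusted p under 0.05, as over all genes tested. Past 2-fold, 4 of 12 were lower and 0 higher, beside 13.2% and 13% over all genes tested. These were Cul9 at -1.92, Cul1 at -1.74, Cul7 at -1.56 and Rnf7, the second RING subunit of the cullins, at -1.23 log2 units. Cul1, the scaffold of the SCF ligases, ran from 4.39 through 5.79 to 6.63 log2(CPM) with vehicle and from 0 through 4.33 to 5.41 with BDE-47. It had the 1 unadjusted p under 0.05 in the list (difference -1.74 log2 units, SE 0.71, limma p = 0.0180, adjusted p = 0.982, exact permutation p = 0.00995). Since Cul1 was named for its limma p, the exact p on the same values is no separate support. Without BDE-47 replicate 2, where it was listed at 0, the difference was -1.09 and the unadjusted limma p 0.0778. The smallest p among those with a higher mean was that of Ddb1, the adaptor of CUL4 ligases (0.37 log2 units, SE 0.39, exact permutation p = 0.326), or 0.15 without vehicle replicate 2. Whether Cul1 and Cul3 differed in their response was not tested.

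**Figure D5:**
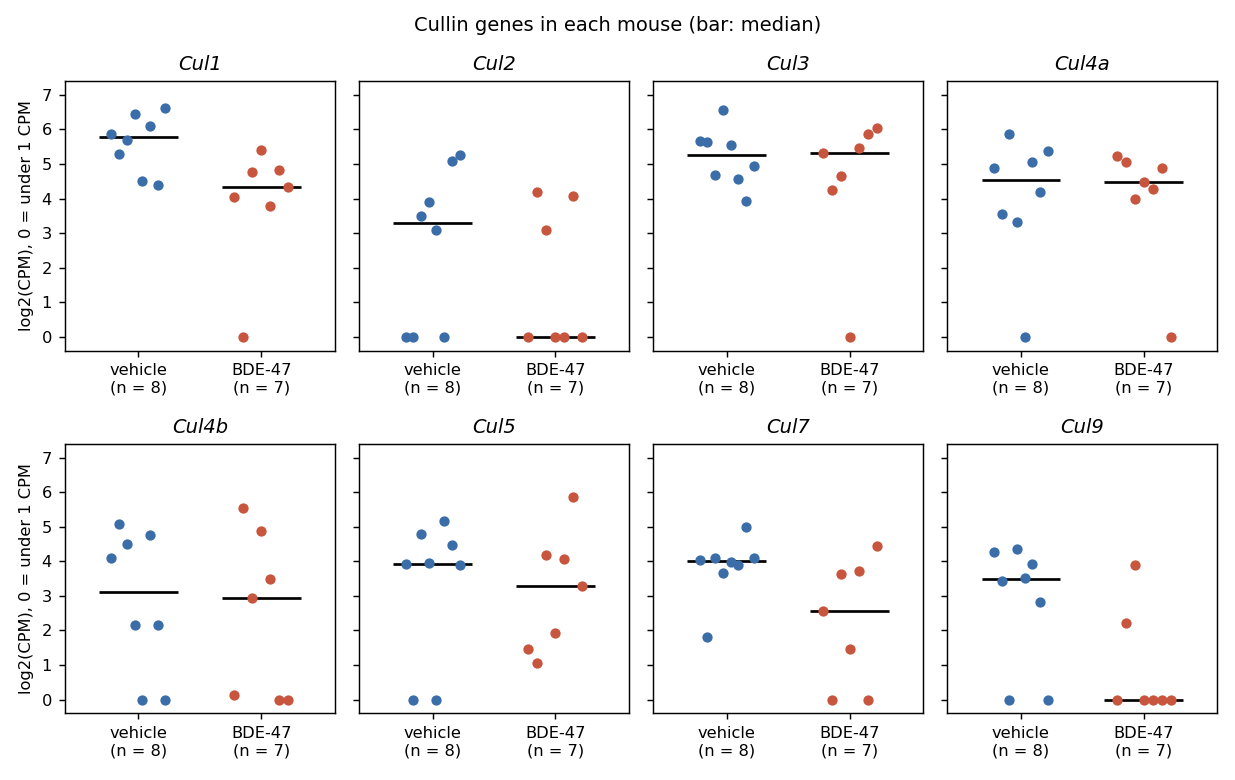
Level of the 8 cullin scaffold genes in each mouse, as log2(CPM) on the vertical axis with genes under 1 CPM at 0, for 8 vehicle mice in blue and 7 BDE-47 mice in red, with a bar at the group median. Cul1 has a median of 5.79 with vehicle and 4.33 with BDE-47, and Cul3 has 5.25 and 5.33, with 1 BDE-47 mouse at 0 in each.

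Known substrates of the adaptors were looked at last, as transcripts only, since the ligase acts on the proteins. Of 12 listed genes 10 passed the filter, with 7 higher and 3 lower, beside 4671 and 4840 of all 9511 genes tested. The median difference was 0.26 log2 units, and none was called, as over all genes tested. Krt14, the keratin that KLHL24 targets, ran from 1.37 through 3.17 to 5.83 log2(CPM) with vehicle and from 2.64 through 5.44 to 6.37 with BDE-47. Its mean was 1.32 log2 units (SE 0.83) higher, which did not pass the test (limma adjusted p = 0.982, exact permutation p = 0.148). Without vehicle replicates 6 and 8, whose luminal markers summed to 33.7 and 120 CPM and basal markers to 76.3 and 46.8 CPM, it was 0.70. In BDE-47 replicate 6 luminal markers summed to 148 CPM and basal markers to 46.8 CPM. Without that mouse too the difference was 1.09, past 2-fold. Krt14 is also a marker of basal epithelium, and of the 6 basal markers 2 had a higher and 4 a lower mean with BDE-47. Sec31a, the coat protein that KLHL12 modifies, ran from 4.92 through 5.90 to 6.91 with vehicle and from 0 through 5.07 to 5.84 with BDE-47 (-1.66 log2 units, SE 0.70, limma p = 0.0216, adjusted p = 0.982, exact permutation p = 0.0336). Since Sec31a was named for its limma p, its exact p is no separate support. Sec31a was at 0 in 1 BDE-47 mouse, replicate 4, and without that mouse the difference was -0.95 and the unadjusted limma p 0.101. Pml was the other substrate more than 2-fold lower, and Krt14 was the 1 more than 2-fold higher, so that 2 and 1 of 10 genes were past 2-fold, beside 13.2% and 13% over all genes tested.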

How the data were processed

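RNA from 15 mice was sequenced with Lexogen QuantSeq 3′ FWD. Per the labels and methods, the authors mapped reads with STAR 2.5.3a to GRCm38 and normalized to CPM (counts per 1 M mapped reads). The deposited tables hold log2(CPM) with genes under 1 CPM at 0. Both the log scale and the cut at 1 CPM were inferred from the numbers, the design had assumed CPM, and the deposited scale was used without a pseudocount. Low values were whole reads in 100% of cases (tolerance 0.05 reads), which gave the depth, but reads under the floor are lost, so no count test was run. Of 52636 entries, 110 with a repeated name were dropped, keeping the entry with the highest sum.

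Genes above the floor in at least 7 mice (9511) were tested with limma 3.58.1 with trend (R 4.3.3), without covariates, with Benjamini-Hochberg adjustment over all of them. Single genes were tested by two-sided exact permutation over all ways to choose 7 of 15 mice (scipy 1.17.1). These p-values are not adjusted. For list genes named by their limma p, the exact test used the same values and gives no separate support. Both tests were checked on simulated data. For limma these were normal values without a floor at 0, so genes with many mice at 0 were not covered. The members and lists were chosen with earlier results of these data known. Besides the 10 members, the text names from each list the genes with an unadjusted limma p under 0.05, otherwise the smallest p in each direction, the 5 genes most correlated with Klhl24 and its neighbours in rank. Keap1 and the list genes past 2-fold were named after their values were seen. Positions are those of RefSeq in GRCm38.p6. The labels do not say whether replicate numbers pair the mice, so the main test used no pairing. A fit with them as a block is given with the alternatives.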

Additional observations from a re-analysis of the deposited data

Results flagged for a closer look

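In 5 of 40 groups examined (20 named genes in each of the vehicle and BDE-47 groups), 1 mouse lay far below the others by Dixon's ratio, the gap to the nearest mouse divided by the range. Chance gives about 1 in 20 groups for independent groups of normal values. These values have a floor at 0 and the genes share the same mice, so that rate need not hold here. Cul3 was listed at 0 in BDE-47 replicate 4 and the next mouse stood at 4.25 log2(CPM), a ratio of 0.705. Cul1 was at 0 in BDE-47 replicate 2 against 3.78 in the next mouse, a ratio of 0.699. Dcun1d5 was at 0 in vehicle replicate 5 against 3.20, a ratio of 0.53, and Cops6 stood at 0.74 in the same mouse against 4.03, a ratio of 0.586. Ddb1 stood at 5.87 in vehicle replicate 2 against 7.33, a ratio of 0.679. Klhl24 gave no such mouse in either group. In the BDE-47 group several mice were tied at 0 for Klhl24, so the rule could flag no low mouse there.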

How the results depend on the processing

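Klhl24 kept its direction under every alternative tried, but it was chosen for its fall in these same mice, so this gives no support. Its difference of -3.57 log2 units was -5.47 with log2(CPM + 0.1), -1.24 over the mice above the floor alone, -2.52 as a ratio of mean CPM, and -4.00 to -3.28 with each mouse left out in turn. Its size therefore depends on how mice under the floor are counted. No gene was called with each mouse left out (0 to 0), and 2 genes, Wfdc18 and Chchd2, neither of them a member, were called without the 3 mice with B cell or muscle markers, a choice made after seeing the data. Over all genes, 1626 were past 2-fold higher and 1716 lower. These counts were 3620 and 2993 with log2(CPM + 0.1), the lower count was 2585 as a ratio of mean CPM, and leaving out each mouse gave 1556 to 2057 and 1590 to 2164.

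Of the other 9 members, Cul3, Rbx1, Klhl7, Klhl12, Klhl13 and Klhl20 changed sign under some alternative and Klhl9, Klhl21 and Klhl22 under none, with adjusted p between 0.807 and 1 for all 9. Over mice above the floor alone, differences were 0.072 for Cul3, -0.25 for Klhl12, -0.25 for Klhl13 and -0.25 for Kbtbd11, which is no member. With log2(CPM + 0.1) they were 0.13 for Klhl7 and 0.010 for Klhl20, and with size factors 0.0034 for Klhl7. As a ratio of mean CPM, Rbx1 gave -0.029 and Klhl12 -0.20. Without both vehicle mice with B cell markers, Rbx1 gave -0.050, Klhl12 -0.0017 and Klhl20 0.26, and without the muscle mouse too, Klhl12 gave -0.22, Klhl13 -0.19 and Klhl20 0.012. With each mouse left out, Cul3 ran from -0.93 to 0.072, Rbx1 from -0.13 to 0.13, Klhl7 from -0.37 to 0.32 and Klhl20 from -0.68 to 0.11. The cause of these changes was not tested. Cul1 had an unadjusted limma p of 0.0589 without both vehicle mice with B cell markers. Of members, only Rbx1 could be tested among genes above the floor in all mice. Within 0.25 log2 units of the vehicle median of Klhl24, 1 gene was at 0 in 4 or more BDE-47 mice, and within 1 unit 3 were.

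The labels do not say whether the replicate numbers pair the mice, and the values below do not settle it. Deviations of same-numbered mice correlated at -0.0177 to 0.0528 over 7 pairs, and 4 of 7 BDE-47 mice correlated best with their own number. With the replicate number as a block, 0 genes were called and Klhl24 differed by -3.61.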
